A study of Mus musculus with 28 samples.

Results

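Villin-PPARD mice were compared with wild-type littermates at 25 weeks of age by RNA sequencing of the gastric corpus, the acid-secreting body of the stomach. The comparison holds 4 villin-PPARD and 4 wild-type libraries, taken by their genotype and age labels, of the 28 libraries of a study that also holds mice of 10 and 55 weeks. Villin-PPARD mice carry a PPARD transgene driven by the villin promoter, a promoter used for expression in gut epithelium; the labels give no strain, no sex and no copy number for the transgene. Epithelial cells were scraped by hand from the opened corpus, and polyadenylated RNA was sequenced as 75-base read pairs with a kit that keeps no strand information, so reads of overlapping genes on opposite strands cannot be told apart. The labels name no treatment, and they do not state that each library is a single mouse. The p-values therefore measure spread between libraries, which the main fit of single genes takes from all 28 libraries.

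PPARD encodes a nuclear receptor that binds fatty acids and their derivatives, pairs with RXR and is known for switching on genes of fatty acid uptake and oxidation. The corpus gland holds mucous pit and neck cells, acid-secreting parietal cells, enzyme-secreting chief cells, endocrine cells and tuft cells. Loss of parietal and chief cells together with the appearance of mucous cells that express neck cell genes is known as spasmolytic polypeptide-expressing metaplasia (SPEM) and is studied as a precursor of gastric cancer.

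Counts assigned to genes summed to between 10982888 and 22298409 per wild-type library and between 12812119 and 21945415 per villin-PPARD library. Levels are given as CPM, a gene's counts scaled to the size of its library, here by trimmed mean of M values, and 4 values in a row are always replicates 1 to 4. Differences are log2 differences, villin-PPARD minus wild type, with their standard error (SE) from edgeR's quasi-likelihood fit of all 28 libraries, and a gene is called when its adjusted p is below 0.05 after Benjamini-Hochberg correction over the 15812 genes tested of 49492. The 10 most abundant genes took 33.6%, 35.5%, 34.5% and 38.6% of the counts in wild type and 23.9%, 25.7%, 23.9% and 23.2% in villin-PPARD (exact permutation test, two-sided p = 0.0286, adjusted p = 0.0857 over 3 measures; 0.0286 is the smallest p that 4 against 4 allows). Mitochondrially encoded genes took 5.71%, 14.9%, 10.3% and 11.2% of the counts in wild type and 4.74%, 4.88%, 6.27% and 4.12% in villin-PPARD (exact permutation p = 0.0571, adjusted p = 0.0857). Of the 8 libraries, 7 carry a group 1 tag in the column names of the deposited table, and wild-type replicate 3 is marked as a replacement; a fit of the group 1 libraries alone, added after the data were seen, called 4782 genes.

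Markers of the corpus were present in all 8 libraries. The proton pump subunit Atp4a (chr7:30712209-30725534) was at 2559 to 11500 CPM, the pepsinogen gene Pgc (chr17:47726842-47734482) at 13950 to 116800 CPM and the pit cell mucin Muc5ac (chr7:141788972-141819231) at 13220 to 26870 CPM. The pan-leukocyte gene Ptprc (chr1:138062861-138175708) was at 1.84 to 6.48 CPM and the T cell gene Cd3e (chr9:44998740-45009627) at 0.104 to 0.596 CPM. Positions are those of GENCODE M21 on GRCm38, the assembly also called mm10.

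Ppard itself (chr17:28232700-28301474), the gene named by the label, was at 80.5, 73.7, 78.3 and 60.3 CPM in wild type and 79.7, 87.8, 95.2 and 99.6 CPM in villin-PPARD. The villin-PPARD range began inside the wild-type range, and wild-type replicate 4 was the lowest library. The difference was small (0.31 ± 0.10, edgeR adjusted p = 0.0183). It lost its call without wild-type replicate 4 (0.23, adjusted p = 0.0998), without villin-PPARD replicate 4 (0.24, adjusted p = 0.0838), in a fit of the 8 libraries alone (0.25, adjusted p = 0.126) and in the group 1 libraries alone (0.36, adjusted p = 0.0538). The labels do not say which PPARD sequence the transgene carries, and reads of a transgene that differs from the mouse gene may not be counted here. Vil1 (chr1:74409376-74435559), which encodes the actin-bundling protein villin of microvilli and lends its promoter to the transgene, was at 41.6, 38.8, 44.9 and 28.1 CPM in wild type and 199, 166, 83.4 and 193 CPM in villin-PPARD. Villin-PPARD replicate 3 was the lowest of its group and still lay above the highest wild-type library (2.07 ± 0.21, edgeR adjusted p = 2.24e-08).

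Genotype was called for 6262 genes (39.6% of those tested), 3318 of them higher (21%) and 2944 lower (18.6%) in villin-PPARD. Of these, 1789 differed by 2-fold or more (11.3% of genes tested), 836 higher (5.29%) and 953 lower (6.03%). For 4314 genes (27.3%) the 4 libraries of a genotype all lay above the 4 of the other, 2350 with villin-PPARD higher (14.9%) and 1964 with it lower (12.4%). The shares of 21% higher and 18.6% lower are the background for each list count below. The median difference of all tested genes was -0.0063. Scaling by total count alone moved that median to 0.15 and the share of higher genes among those called from 53% to 74.5% (4867 of 6532), so small differences in either direction depend on the scaling. The plot of calls by gene list shows where these genes fall; most tested members of the interferon-stimulated, MHC class I and mitosis lists were called higher, and most of the parietal, chief and respiratory chain lists lower.

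**Figure D1:**
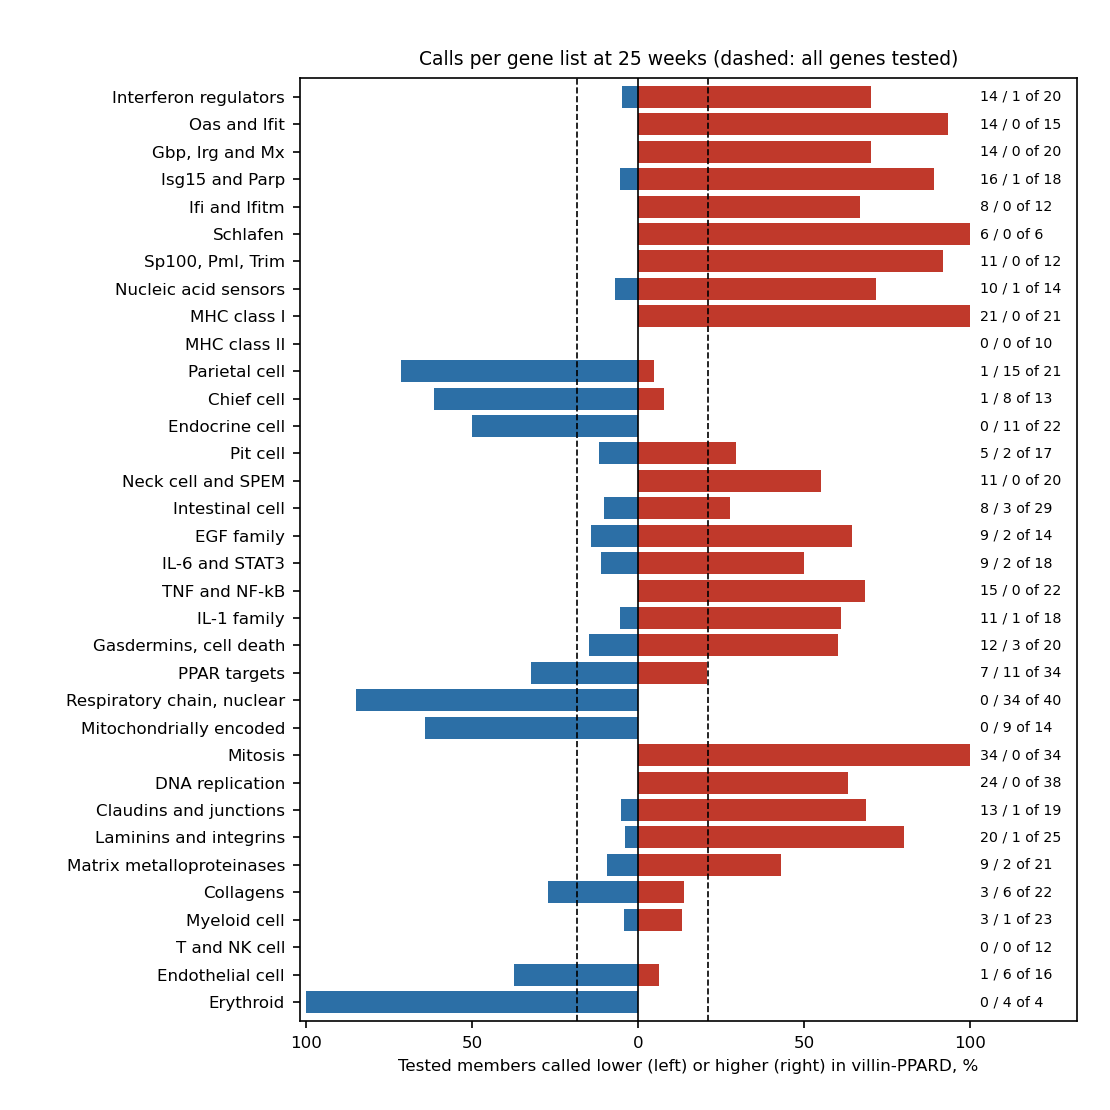
Percent of the tested members of each gene list called higher (right, red) or lower (left, blue) in villin-PPARD at 25 weeks, with counts of higher and lower calls of the members tested at the right. Dashed lines mark the shares over all genes tested, 21% higher and 18.6% lower; all 21 MHC class I members and all 34 mitosis members were called higher, and 34 of 40 nuclear respiratory chain members lower.

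Interferon-stimulated genes were among the largest rises. Interferons are secreted antiviral cytokines; their receptors signal through the kinases JAK1 and TYK2 to the complex ISGF3, which binds the interferon-stimulated response element (ISRE) in promoters. IRF7 amplifies the response, and SOCS1 and USP18 restrain it. Of 20 tested regulators 14 rose and 1 fell, with a median of 0.49. Of 15 tested OAS and IFIT genes 14 rose (median 4.71), of 20 GBP, IRG and MX genes 14 rose (median 3.67), and of 18 genes of the ISG15 and PARP list 16 rose and 1 fell (median 3.23). All 6 tested Schlafen genes rose (median 4.99), as did 11 of 12 of the SP100, PML and TRIM list (median 2.23), 8 of 12 IFI and IFITM genes (median 1.88) and 10 of 14 nucleic acid sensors, of which 1 fell (median 1.82). These counts stand against 21% of all genes tested.

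The genes of the signalling complex and its regulators given here were higher in every villin-PPARD library than in any wild-type library. Irf7 (chr7:141262706-141266481) was at 13.6, 16.4, 21.2 and 13.96 CPM in wild type and 312, 341, 396 and 321 CPM in villin-PPARD. All 4 villin-PPARD libraries lay far above wild type, and replicate 3, the lowest for many genes below, was the highest here (4.39 ± 0.26, edgeR adjusted p = 5.68e-13). Stat2, a subunit of ISGF3, was at 36.9, 38.4, 44.1 and 36.1 CPM in wild type and 350.1, 340.2, 208 and 261 CPM in villin-PPARD, without overlap and with replicate 3 the lowest of its group (2.8974 ± 0.15, edgeR adjusted p = 4.08e-15). Irf9, the main DNA-binding subunit, spanned 17.4 to 26.6 CPM in wild type and 74.4 to 98.7 CPM in villin-PPARD (2.02 ± 0.12, edgeR adjusted p = 8.74e-14). Usp18 (chr6:121245906-121270917), which encodes a protease that removes ISG15 and blocks the receptor, was at 2.32, 2.92, 4.07 and 3.72 CPM in wild type and 168, 145, 120.3 and 125 CPM in villin-PPARD, and the groups were far apart (5.3968 ± 0.31, edgeR adjusted p = 3.02e-13). Socs1, an inhibitor of JAK kinases, spanned 0.122 to 0.54 CPM in wild type and 1.89 to 3.54 CPM in villin-PPARD (2.65 ± 0.33, edgeR adjusted p = 3.03e-07).

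Effector genes rose as well. Isg15 (chr4:156199424-156200818), a ubiquitin-like protein attached to other proteins, was at 1.65, 3.44, 5.25 and 2.803 CPM in wild type and 275, 227, 191 and 229 CPM in villin-PPARD. The groups did not overlap, and replicate 3 was the lowest villin-PPARD library (6.11 ± 0.40, edgeR adjusted p = 1.13e-11). Bst2 (chr8:71534255-71537456), which tethers budding viruses to the membrane, was at 6.97, 6.15, 10.6 and 9.002 CPM in wild type and 380.4, 339, 266 and 298 CPM in villin-PPARD, with the same separation (5.27 ± 0.23, edgeR adjusted p = 1.03e-16). Oas2, an enzyme that makes the activator of RNase L, was at 18.6, 17.3, 35 and 22.8 CPM in wild type and 928, 911, 595 and 749.7 CPM in villin-PPARD. The highest villin-PPARD libraries were replicates 1 and 2 (5.08 ± 0.33, edgeR adjusted p = 3.51e-12). Ifit1 (chr19:34640871-34650009), which binds viral RNA, was at 0.306, 3.23, 3.93 and 1.19 CPM in wild type and 303, 265, 163 and 169 CPM in villin-PPARD. Wild-type replicate 1 was the lowest of all for Ifit1, and the lowest villin-PPARD library was far above the highest wild-type library (6.72 ± 0.59, edgeR adjusted p = 3.42e-09); without wild-type replicate 3 the difference was 7.36. Irgm1, a regulator of autophagy and of other immunity-related GTPases, spanned 3.06 to 7.85 CPM in wild type and 117 to 246 CPM in villin-PPARD (5.23 ± 0.25, edgeR adjusted p = 2.53e-15). Gbp3, a guanylate-binding protein, spanned 0.856 to 3.98 CPM in wild type and 61.2 to 129.5 CPM in villin-PPARD (5.4015 ± 0.31, edgeR adjusted p = 3.02e-13), and Sp100, a nuclear body protein, 1.47 to 4.47 CPM in wild type and 176 to 305 CPM in villin-PPARD (6.29 ± 0.22, edgeR adjusted p = 3.72e-19). Reads of the near-identical copies within the Ifit, Oas, Gbp and Schlafen families may be divided differently among their members by the counting.

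Schlafen genes, some of which restrict viral protein synthesis or lymphocyte growth, differed in how far they rose. Slfn4 (chr11:83175186-83190216), an interferon-induced member known from myeloid cells, was at 2.26, 3.54, 3.93 and 4.53 CPM in wild type and 1438, 1705, 608 and 1176 CPM in villin-PPARD. Villin-PPARD replicate 3 was the lowest of its group by a wide margin and still lay far above wild type (8.42 ± 0.39, edgeR adjusted p = 2.91e-15). Slfn9 was at 13.3, 15.6, 8.002 and 12.02 CPM in wild type and 40.7, 42.5, 36.6 and 42.7 CPM in villin-PPARD, a narrower gap with the 4 villin-PPARD libraries close together (1.75 ± 0.16, edgeR adjusted p = 1.09e-09). The pseudogene Slfn10-ps was at 0.122, 0, 0.147 and 0.162 CPM in wild type and 8.697, 11.6, 4.35 and 8.86 CPM in villin-PPARD, near 0 in wild type (6.02 ± 0.46, edgeR adjusted p = 1.82e-11).

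Sensors of foreign nucleic acid rose too, while transcripts of 7 interferon genes were not detected. Ddx58 (chr4:40203773-40239828), which encodes the RNA sensor RIG-I, was at 5.38, 5.21, 8.64 and 6.31 CPM in wild type and 197, 183, 116 and 133 CPM in villin-PPARD. Ddx58 levels did not overlap between the genotypes (4.6016 ± 0.20, edgeR adjusted p = 4.92e-17). Eif2ak2, the RNA-activated kinase PKR that halts translation, was at 32.05, 45, 44.03 and 33.3 CPM in wild type and 234, 196, 125 and 193 CPM in villin-PPARD. Replicate 3 was again the lowest villin-PPARD library (2.28 ± 0.17, edgeR adjusted p = 9.50e-12). Of 8 interferon genes examined, Ifnb1, Ifng, Ifnl2, Ifnl3, Ifna2, Ifna4 and Ifnk had 0 counts in all 8 libraries. Where their reads can be counted, this allows up to 0.0462 CPM in wild type and 0.0404 CPM in villin-PPARD (3 counts over the group, counting error only). Reads that fit more than 1 gene, as in families of close copies, may not be counted here. Trex1 of the sensor list also had 0 counts in all 8 libraries, and the reason was not tested. Ifne, an epithelial interferon, was at 0.489, 0.938, 0.638 and 0.323 CPM in wild type and 0.526, 0.513, 0.404 and 0.894 CPM in villin-PPARD. Its groups overlapped fully (-0.0067 ± 0.36, edgeR adjusted p = 0.992). Nptx2, a neuronal pentraxin outside these families, was among the 20 largest rises (of genes with an ordinary symbol, groups apart and at least 1 CPM in the higher group) at 0.122, 0.312, 0.0491 and 0.539 CPM in wild type and 20.7, 18.9, 10.5 and 19.1 CPM in villin-PPARD. Nptx2 levels did not overlap between the genotypes (6.09 ± 0.59, edgeR adjusted p = 1.13e-08); without wild-type replicate 4 the difference was 6.98.

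Promoter sequence was examined for the ISRE because these genes moved together. The motif searched was its core, GAAA, any 2 bases and GAAA again, 10 bases in all, on both strands and with overlapping matches allowed, in RefSeq promoter windows of GRCm38.p6 from 250 bases before to 50 bases after each start. It was found in 3.44% of all windows (1131 of 32851) and in 3.82% of the 10997 tested genes that have a window. Among called genes it was found in 6.18% of those higher (152 of 2460) and 2.86% of those lower (61 of 2130), and in 37.7% of genes called at least 16-fold higher (20 of 53 with a window, of 83). By list it was found in 10 of 11 GBP, IRG and MX genes with a window, 9 of 12 OAS and IFIT genes, 6 of 11 of the SP100, PML and TRIM list, 3 of 5 Schlafen genes, 4 of 8 IFI and IFITM genes, 4 of 9 nucleic acid sensors, 3 of 14 of the ISG15 and PARP list and 3 of 16 interferon regulators. For MHC class I it was found in 5 of 17 genes and for MHC class II in 0 of 7. Of those 20 largest rises 15 have a window and 9 hold a match, and of the 20 largest falls chosen likewise 17 have a window and 1 holds a match. The core of another element, GAS (TTC, any 3 bases and GAA), was searched likewise. It was found in 8.44% of genes tested and 9.59% of those called higher. By list it was in 6 of 11 GBP, IRG and MX genes and 5 of 16 interferon regulators. It was in 1 of 14 of the ISG15 and PARP list, 0 of 5 Schlafen genes and 0 of 15 of the largest rises. Such a match is a description of the sequence, and its absence says only that these letters are not in the window.

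**Figure D2:**
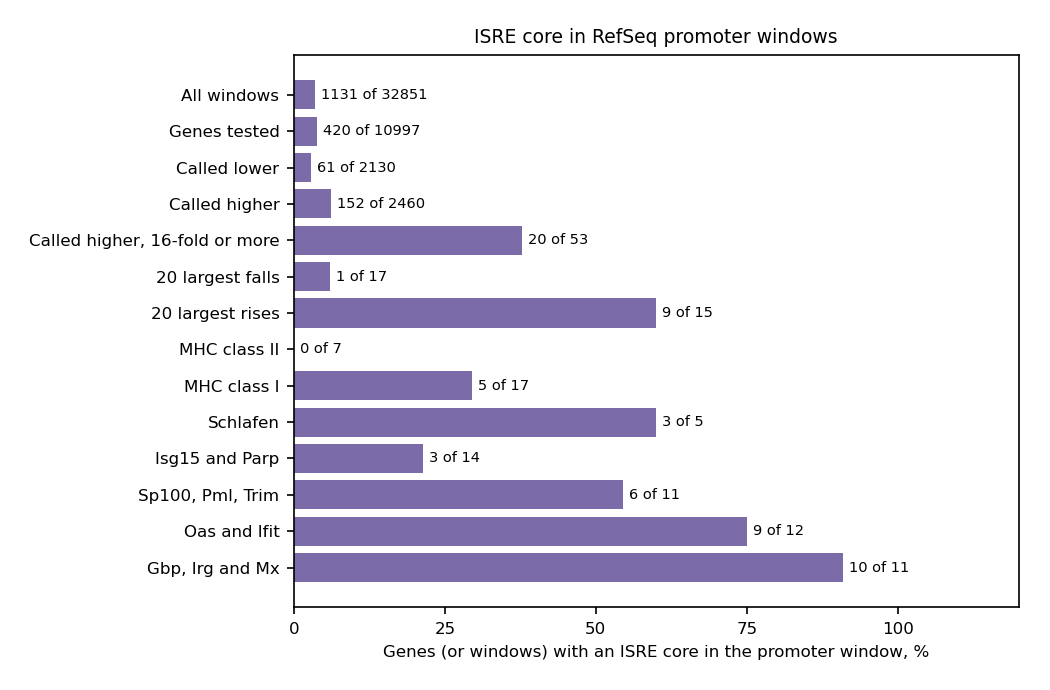
Percent of genes (for the top bar, of windows) whose RefSeq promoter window holds the ISRE core on either strand, with counts beside each bar. The share is 3.44% over all windows, 6.18% in genes called higher, 37.7% in genes called at least 16-fold higher and 90.9% in the GBP, IRG and MX list.

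The 250 bases before the start are shown for 4 genes with a match, which differ in number and strand of the matches, and for Slfn4, the gene with the largest rise, which has none; they are written 5′ to 3′ on the strand of the gene, and capitals mark the ISRE core.
Isg15, chr4:156200819-156201068, minus strand: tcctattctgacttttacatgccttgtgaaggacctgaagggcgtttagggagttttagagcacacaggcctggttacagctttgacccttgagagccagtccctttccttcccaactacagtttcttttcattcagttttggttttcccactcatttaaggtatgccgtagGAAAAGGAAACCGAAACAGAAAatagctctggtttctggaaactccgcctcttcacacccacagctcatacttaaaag
Ifit1, chr19:34640639-34640888, plus strand: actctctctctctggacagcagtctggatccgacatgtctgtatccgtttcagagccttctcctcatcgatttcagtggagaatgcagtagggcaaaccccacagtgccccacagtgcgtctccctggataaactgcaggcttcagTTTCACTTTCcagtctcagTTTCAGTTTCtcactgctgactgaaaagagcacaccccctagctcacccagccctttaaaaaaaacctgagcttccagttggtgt
Bst2, chr8:71537473-71537722, minus strand: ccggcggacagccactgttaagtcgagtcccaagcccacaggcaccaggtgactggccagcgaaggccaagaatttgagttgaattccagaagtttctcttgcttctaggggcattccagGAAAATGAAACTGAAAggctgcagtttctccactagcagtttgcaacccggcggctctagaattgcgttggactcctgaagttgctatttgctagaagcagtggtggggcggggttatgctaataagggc
B2m, chr2:122147437-122147686, plus strand: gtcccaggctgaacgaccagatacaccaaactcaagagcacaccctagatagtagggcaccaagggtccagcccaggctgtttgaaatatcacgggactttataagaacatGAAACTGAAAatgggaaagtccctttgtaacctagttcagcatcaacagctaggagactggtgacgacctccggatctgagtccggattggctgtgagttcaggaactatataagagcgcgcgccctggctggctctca
Slfn4, chr11:83174936-83175185, plus strand: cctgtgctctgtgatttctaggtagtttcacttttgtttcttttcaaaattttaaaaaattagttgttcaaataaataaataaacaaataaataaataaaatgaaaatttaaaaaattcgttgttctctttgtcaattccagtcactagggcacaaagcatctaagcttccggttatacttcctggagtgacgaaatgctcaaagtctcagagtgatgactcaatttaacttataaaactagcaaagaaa
Isg15 holds 3 overlapping matches that begin 78, 72 and 66 bases before the start. Ifit1 holds 2 on the opposite strand, 104 and 85 bases before the start, Bst2 holds 2 that overlap, 130 and 124 bases before it, and B2m holds 1, 139 bases before it.

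Genes of antigen presentation by MHC class I, the pathway that shows peptides from inside the cell to CD8 T cells, all rose: 21 of 21 tested, each with no overlap between the groups, against 21% and 14.9% of all genes (median 1.999). Their summed level was 1807 to 2407 CPM in wild type and 6315 to 13862 CPM in villin-PPARD. The light chain gene B2m (chr2:122147686-122153083) was at 259, 361, 469.7 and 354 CPM in wild type and 3641, 2450, 1718 and 1982 CPM in villin-PPARD. Replicate 1 was the highest and replicate 3 the lowest villin-PPARD library (2.76 ± 0.20, edgeR adjusted p = 7.62e-12). The heavy chain gene H2-K1 (chr17:33996017-34000347) was at 218, 152, 255 and 210.3 CPM in wild type and 1841, 1211, 840.5 and 1150 CPM in villin-PPARD, in the same order (2.59 ± 0.19, edgeR adjusted p = 7.97e-12). Psmb8, a subunit of the immunoproteasome that cuts the peptides, was at 3.36, 2.71, 6.28 and 3.45 CPM in wild type and 88.98, 54.6, 31.6 and 55.7 CPM in villin-PPARD (3.82 ± 0.28, edgeR adjusted p = 6.68e-11). Nlrc5 (chr8:94434356-94527272), the transactivator of class I genes, was at 0.306, 0.312, 2.798 and 1.08 CPM in wild type and 50.4, 42.8, 18.5 and 26.1 CPM in villin-PPARD. Wild-type replicate 3 was the highest of its group, and without it the difference of Nlrc5 was 5.79, against 4.77 ± 0.47, edgeR adjusted p = 3.39e-08 with all libraries. Class I genes are close copies of each other, so reads may be shared among them.

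MHC class II genes, which present peptides to CD4 T cells, gave another picture: 0 of 10 were called in either direction (edgeR; 0 at an unadjusted p below 0.05, 0 with DESeq2 and 1 lower with limma-voom), with a median of -0.25 and a summed level of 68.2 to 174 CPM in wild type and 67.4 to 170 CPM in villin-PPARD. H2-Ab1 (chr17:34257689-34269419) was at 21.9, 20.9, 42.95 and 36.9 CPM in wild type and 48.1, 45.5, 19.3 and 44.01 CPM in villin-PPARD. Villin-PPARD replicate 3 was lower than all wild-type libraries, while the other 3 were higher than all of them (0.34 ± 0.41, edgeR adjusted p = 0.534). Ciita, the class II transactivator, was at 0.245, 0.312, 1.13 and 1.56 CPM in wild type and 1.15, 0.513, 0.359 and 0.521 CPM in villin-PPARD. Ciita levels overlapped between the genotypes (-0.44 ± 0.72, edgeR adjusted p = 0.658). Of 11 tested genes of immune checkpoints and tryptophan use 9 rose. Cd274, which encodes the checkpoint ligand PD-L1, was at 0.856, 1.25, 1.67 and 1.51 CPM in wild type and 5.35, 5.02, 1.98 and 3.5 CPM in villin-PPARD. Replicate 3 lay just above the highest wild-type library (1.56 ± 0.34, edgeR adjusted p = 5.95e-04). Vtcn1, the ligand B7-H4, was at 8.501, 6.04, 6.18 and 5.55 CPM in wild type and 47.2, 43.2, 18.9 and 58.5 CPM in villin-PPARD. Vtcn1 levels did not overlap between the genotypes (2.67 ± 0.23, edgeR adjusted p = 8.31e-10). Lgals9, the ligand galectin-9, was at 525, 499, 516 and 389 CPM in wild type and 1561, 1361, 1189 and 1345 CPM in villin-PPARD. Lgals9 levels did not overlap between the genotypes (1.4999 ± 0.16, edgeR adjusted p = 2.10e-08).

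**Figure D3:**
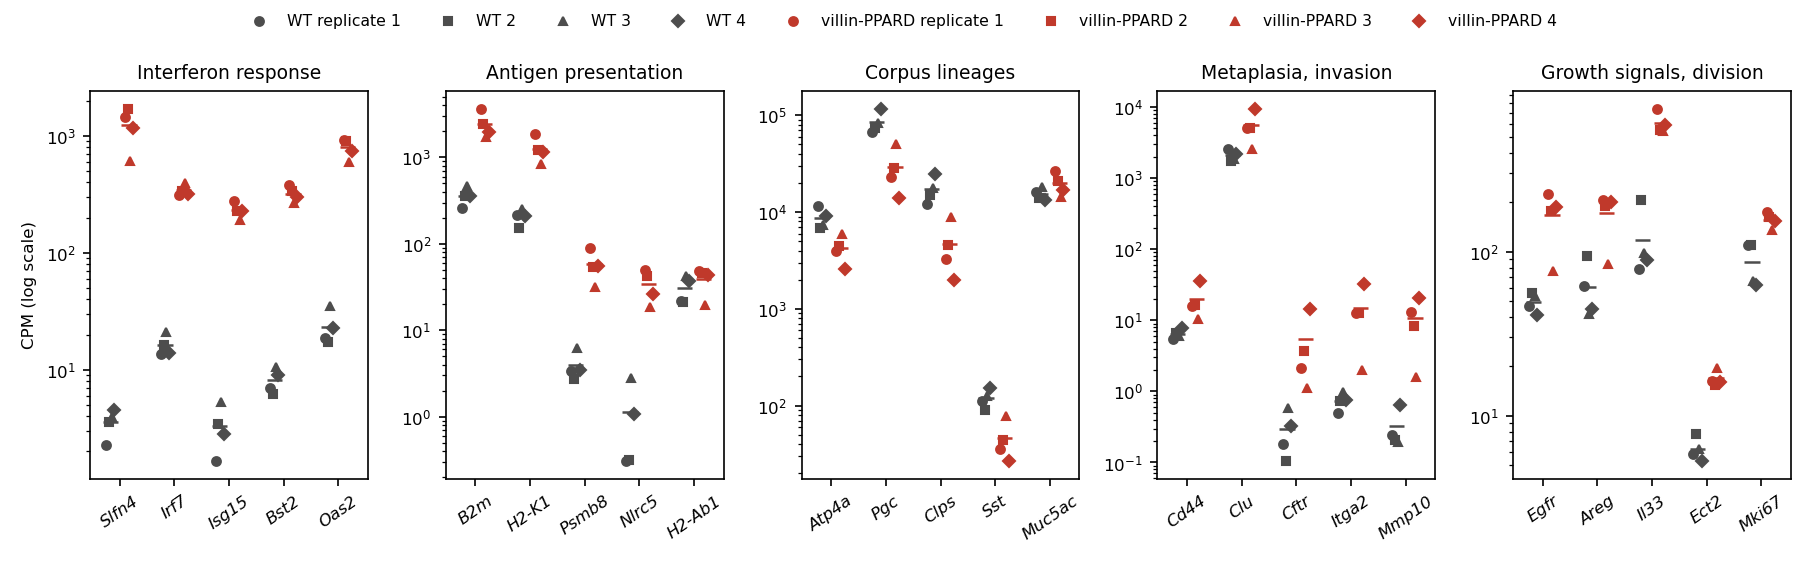
CPM on a log axis of 25 genes in each of the 8 libraries at 25 weeks (gray, wild type; red, villin-PPARD; marker shapes, replicates 1 to 4; horizontal bars, group means). Interferon response and class I genes lie apart, whereas H2-Ab1 and Muc5ac overlap, and villin-PPARD replicate 3 (triangles) is nearest to wild type for Egfr (76.7 CPM) and Itga2 (2.02 CPM) but the highest for Ect2 (19.6 CPM).

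The 4 villin-PPARD libraries were not alike. In a principal component analysis of the 8 libraries the first component held 62.8% of the variance and put wild type at -45.0, -32.2, -34.4 and -44.0 and villin-PPARD at 51.5, 40.2, 13.4 and 50.5. Villin-PPARD replicate 3 was thus nearest to wild type. It was also the villin-PPARD library nearest to the wild-type mean in 61.7% of genes called higher (2046 of 3318) and 62.4% of those called lower (1836 of 2944), and in 77.3% of those at least 2-fold higher (646 of 836). The farthest library was replicate 1 or 4 for most genes. Among all genes called higher it was replicate 1 in 47.6% and replicate 4 in 29.7%, and among those called lower in 38.7% and 36.3%. Among genes at least 2-fold higher the shares were 40.6% and 42.7%, and among the 953 at least 2-fold lower these were 334 and 401 genes. Replicate 1 was the farthest for 21 of 21 MHC class I genes and replicate 4 for 13 of 15 parietal genes called lower. The nearest library differed between lists. Replicate 3 was nearest for 13 of 13 called claudin and junction genes, 9 of 9 of the EGF family, 9 of 9 matrix metalloproteinases and 32 of 34 respiratory chain genes, but for only 4 of 34 mitosis genes, where it was the farthest for 23. Without replicate 3 the fit called 6807 genes, 3332 higher and 3475 lower.

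**Figure D4:**
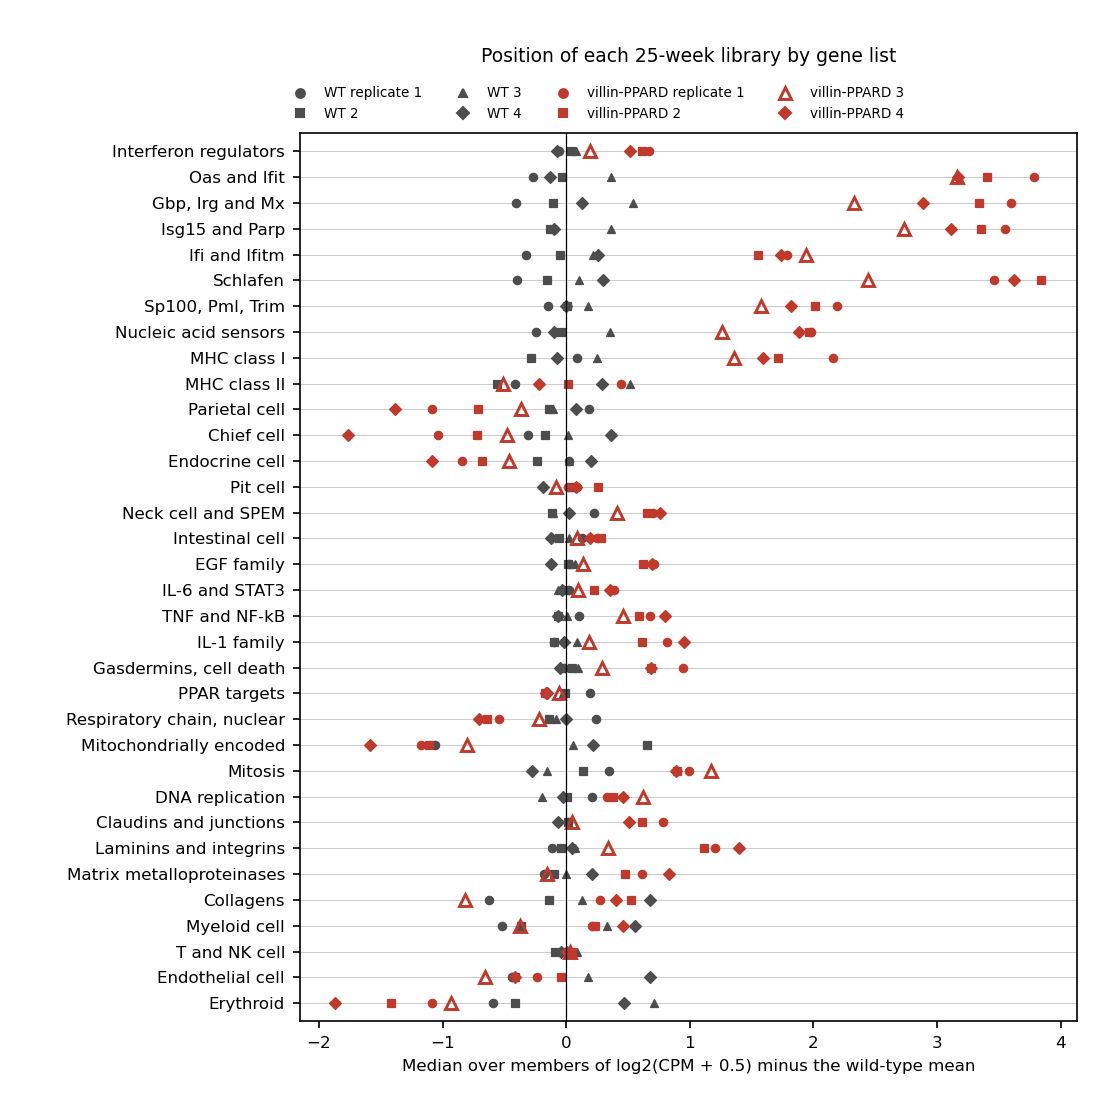
Median over the tested members of each list of log2(CPM + 0.5) minus the wild-type mean, for each of the 8 libraries at 25 weeks. Villin-PPARD replicate 3 (open triangles) lies at 0.34 for laminins and integrins where the other villin-PPARD libraries lie between 1.112 and 1.397, at -0.37 for parietal genes where they lie between -1.38 and -0.71, and at 1.17 for mitosis where they lie between 0.888 and 0.995.

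Parietal cell genes were lower. Of 21 tested 15 fell and 1 rose, against 18.6% and 21% of all genes (median -0.88), and their summed level went from 18497 to 24504 CPM in wild type to 9758 to 16391 CPM in villin-PPARD. In RNA of whole epithelium, fewer cells of a type and less RNA of that kind per cell cannot be told apart. Atp4a was at 11500, 6838, 7291 and 9130 CPM in wild type and 3944, 4482, 5906 and 2559 CPM in villin-PPARD. Replicate 3 was the highest and replicate 4 the lowest villin-PPARD library, and the groups did not overlap (-1.04 ± 0.27, edgeR adjusted p = 0.00347). Kcnj16, a potassium channel subunit, was at 259.9, 376, 330.1 and 272 CPM in wild type and 138, 147, 147 and 83.03 CPM in villin-PPARD, with replicate 4 standing below the rest (-1.26 ± 0.19, edgeR adjusted p = 1.22e-05). Hrh2, the histamine receptor that drives acid secretion, was at 66.3, 47.4, 50.9 and 50.2 CPM in wild type and 23.4, 29.6, 35.7 and 20.1 CPM in villin-PPARD. Hrh2 levels did not overlap between the genotypes (-0.98 ± 0.18, edgeR adjusted p = 1.02e-04). Ckb, a creatine kinase, was at 186, 90.6, 114 and 172 CPM in wild type and 34.6, 41.1, 105 and 27.6 CPM in villin-PPARD. Replicate 3 lay inside the wild-type range (-1.44 ± 0.31, edgeR adjusted p = 9.04e-04), and without it the difference was -2.05. The member that rose was Car2, a carbonic anhydrase that parietal and pit cells share, at 1370, 1677, 1564 and 1193 CPM in wild type and 2989, 2496, 2645 and 2657 CPM in villin-PPARD. Car2 levels did not overlap between the genotypes (0.89 ± 0.16, edgeR adjusted p = 1.11e-04).

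Chief cell genes were lower as well, 8 of 13 tested having fallen and 1 risen (median -1.02). Pgc was at 67640, 73430, 84290 and 116800 CPM in wild type and 23010, 28770, 49970 and 13950 CPM in villin-PPARD. The 2 groups did not overlap, and replicate 4 held the lowest level (-1.56 ± 0.40, edgeR adjusted p = 0.00299). Clps, the cofactor colipase, was at 12050, 14870, 17920 and 24600 CPM in wild type and 3311, 4550, 8976 and 1999 CPM in villin-PPARD, in the same order of libraries (-1.88 ± 0.42, edgeR adjusted p = 9.83e-04). Amy2b, a pancreatic-type amylase, had 88 counts over the wild-type libraries and 0 in villin-PPARD, a level at least 33.5-fold lower when set against 3 counts over the group. Cym (chr3:107211293-107221732), which encodes the milk-clotting protease chymosin, went the other way at 34.1, 18.8, 26.02 and 24.6 CPM in wild type and 99.5, 218, 40.9 and 81.9 CPM in villin-PPARD. Its lowest villin-PPARD library was just above the highest wild-type library, and replicate 2 was the highest (2.08 ± 0.47, edgeR adjusted p = 0.00115).

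Of 17 tested pit cell genes 5 rose and 2 fell, near the shares of all genes (21% and 18.6%); without villin-PPARD replicate 1 only 3 rose. Muc5ac was at 16080, 13900, 18090 and 13220 CPM in wild type and 26870, 21140, 14350 and 16810 CPM in villin-PPARD. Muc5ac levels overlapped between the genotypes (0.37 ± 0.27, edgeR adjusted p = 0.285). Muc1, a membrane mucin, was at 1267, 1087, 1157 and 1031 CPM in wild type and 2432, 2290, 1825 and 1840 CPM in villin-PPARD. Muc1 levels did not overlap between the genotypes (0.88 ± 0.13, edgeR adjusted p = 5.61e-06). Gkn1, gastrokine 1, was at 68030, 54680, 57320 and 56850 CPM in wild type and 36630, 35250, 27450 and 33780 CPM in villin-PPARD, lower in every villin-PPARD library (-0.83 ± 0.23, edgeR adjusted p = 0.00462). Muc13, a membrane mucin, was at 5.14, 9.38, 11.1 and 4.69 CPM in wild type and 24.3, 20.4, 7.76 and 39.99 CPM in villin-PPARD. Replicate 3 lay within wild type (1.61 ± 0.38, edgeR adjusted p = 0.00179). Muc6, the mucin of neck cells, was at 1175, 1418, 636 and 1162 CPM in wild type and 858, 1248, 1759 and 688 CPM in villin-PPARD, with no separation at all (0.05 ± 0.34, edgeR adjusted p = 0.917).

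Endocrine genes fell in 11 of 22 tested and rose in none (edgeR, none also with DESeq2 or limma-voom), with a median of -0.93. Leaving out single libraries gave 8 to 15 falls, the 15 being without villin-PPARD replicate 3. Scaling by total count alone gave 8. Somatostatin, Sst (chr16:23889573-23890958), was at 113, 90.3, 127 and 151 CPM in wild type and 35.8, 44.1, 78.5 and 26.7 CPM in villin-PPARD. The groups did not overlap, and replicate 3 was the nearest to wild type (-1.38 ± 0.26, edgeR adjusted p = 2.21e-04). Ghrl, the hormone ghrelin, was at 791, 434, 725 and 825 CPM in wild type and 219, 247, 406 and 144 CPM in villin-PPARD. Ghrl levels did not overlap between the genotypes (-1.45 ± 0.33, edgeR adjusted p = 0.00136). Isl1, an endocrine transcription factor, was at 12.1, 12.4, 9.28 and 10.6 CPM in wild type and 3.97, 5.53, 5.25 and 2.98 CPM in villin-PPARD (-1.3021 ± 0.21, edgeR adjusted p = 1.93e-05). Gast, the antral hormone gastrin, was at 9.79, 0, 6.87 and 0.593 CPM in wild type and 0, 0.285, 0.269 and 0.223 CPM in villin-PPARD. Wild-type replicates 1 and 3 alone carried its level, and wild-type replicate 2 and villin-PPARD replicate 1 had none (-4.4993 ± 1.31, edgeR adjusted p = 0.00851; limma-voom gave adjusted p = 0.106, and without wild-type replicate 1 the difference was -3.76).

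Genes of neck cells and SPEM rose in 11 of 20 tested and fell in none (edgeR, none also with DESeq2), with a median of 0.78. Cd44 (chr2:102811141-102901665), a hyaluronan receptor, was at 5.38, 6.67, 5.94 and 7.87 CPM in wild type and 16.1, 16.5, 10.6 and 35.7 CPM in villin-PPARD. Replicate 4 was the highest, and all villin-PPARD libraries lay above wild type (1.59 ± 0.26, edgeR adjusted p = 3.68e-05). Clu, the chaperone clusterin, was at 2585, 1744, 1885 and 2190 CPM in wild type and 5154, 5139, 2563 and 9444 CPM in villin-PPARD. Replicate 3 fell just inside the wild-type range (1.41 ± 0.22, edgeR adjusted p = 1.78e-05). Cftr, the chloride channel, was at 0.183, 0.104, 0.589 and 0.323 CPM in wild type and 2.103, 3.65, 1.12 and 14.6 CPM in villin-PPARD. Replicate 4 exceeded the others by far (3.87 ± 0.66, edgeR adjusted p = 8.13e-05), and without it the difference was 2.69. Wfdc2, which encodes HE4, was at 127, 74.9, 82.2 and 101 CPM in wild type and 156, 181, 126 and 269 CPM in villin-PPARD, with replicate 3 overlapping (0.92 ± 0.17, edgeR adjusted p = 1.05e-04). Muc6 and Tff2, a pair often used to mark SPEM, were not called.

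Intestinal genes were mixed, with 8 of 29 tested higher and 3 lower, near the background shares. Gpa33, an intestinal surface antigen, was at 10.4, 4.896, 16.99 and 7.82 CPM in wild type and 63.1, 50.1, 21.9 and 123 CPM in villin-PPARD, with replicate 3 just above wild type (2.64 ± 0.42, edgeR adjusted p = 3.71e-05). Krt20, a keratin of intestine and pit cells, was at 239, 312, 279 and 216 CPM in wild type and 629.9, 657, 310.3 and 1033 CPM in villin-PPARD. Replicate 3 overlapped (1.33 ± 0.32, edgeR adjusted p = 0.00179). The intestinal master regulators were close to absent: Cdx1 had 0 counts in all 8 libraries, and Cdx2 was at 0, 0, 0 and 0.0539 CPM in wild type and 0, 0.342, 0 and 0.149 CPM in villin-PPARD, neither being tested. Pdx1, the regulator of antrum and duodenum, was at 5.81, 7.29, 5.94 and 3.56 CPM in wild type and 16.4, 11.3, 9.56 and 21.3 CPM in villin-PPARD. Pdx1 levels did not overlap between the genotypes (1.39 ± 0.24, edgeR adjusted p = 7.67e-05).

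Ligands and receptors of the EGF family, which drive growth of the gastric epithelium, rose in 9 of 14 tested and fell in 2 (median 0.72); the falls numbered 0 without villin-PPARD replicate 4 and 1 without wild-type replicate 1 or 4 or villin-PPARD replicate 1 or 2. The receptor gene Egfr (chr11:16752203-16918158) was at 46.8, 56.2, 53.7 and 41.3 CPM in wild type and 224, 178, 76.7 and 186 CPM in villin-PPARD. Replicate 3 was above wild type but under the other villin-PPARD libraries by more than its distance to wild type (1.75 ± 0.27, edgeR adjusted p = 2.15e-05). The ligand gene Areg, amphiregulin, was at 61.8, 93.7, 41.8 and 44.9 CPM in wild type and 207, 191, 84.3 and 201 CPM in villin-PPARD, and replicate 3 lay below wild-type replicate 2 (1.5044 ± 0.28, edgeR adjusted p = 1.49e-04). Btc, betacellulin, was at 13.9, 20.7, 20.4 and 16.5 CPM in wild type and 62.7, 46.7, 36.9 and 46.8 CPM in villin-PPARD. Btc levels did not overlap between the genotypes (1.44 ± 0.19, edgeR adjusted p = 1.08e-06). Of 21 immediate early genes 7 rose, against 21% of all genes. Fosl1, a subunit of the transcription factor AP-1, was at 1.28, 3.65, 0.933 and 0.862 CPM in wild type and 7.46, 6.79, 6.87 and 7.15 CPM in villin-PPARD. Wild-type replicate 2 was the highest of its group, and villin-PPARD libraries were close together (2.22 ± 0.32, edgeR adjusted p = 5.80e-06). Myc, the growth regulator, was at 26.7, 20.7, 16.4 and 16.9 CPM in wild type and 39.3, 28.9, 28.2 and 34.2 CPM in villin-PPARD. Myc levels did not overlap between the genotypes (0.6992 ± 0.14, edgeR adjusted p = 3.04e-04).

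Cytokine receptors that signal through STAT3 were among the called genes, 9 of 18 members of the IL-6 and STAT3 list having risen and 2 fallen. Il22ra1 (chr4:135728172-135752140), the epithelial receptor of IL-22, was at 0.734, 0.417, 0.933 and 0.593 CPM in wild type and 9.99, 8.61, 3.46 and 9.46 CPM in villin-PPARD, low in every wild-type library (3.47 ± 0.38, edgeR adjusted p = 6.01e-08). The ligand Lif, leukemia inhibitory factor, was at 2.63, 3.02, 2.26 and 2.16 CPM in wild type and 16.8, 16.7, 6.104 and 19.4 CPM in villin-PPARD. Lif levels did not overlap between the genotypes (2.56 ± 0.29, edgeR adjusted p = 1.03e-07). Osmr, the oncostatin M receptor, was at 4.34, 4.79, 4.57 and 6.74 CPM in wild type and 36.5, 30.2, 11.2 and 32.7 CPM in villin-PPARD. Osmr levels did not overlap between the genotypes (2.42 ± 0.28, edgeR adjusted p = 2.28e-07). Lifr, the receptor of LIF, was lower at 80.2, 96.8, 76.2 and 77.8 CPM in wild type and 41, 45.1, 50.2 and 37.01 CPM in villin-PPARD (-0.93 ± 0.10, edgeR adjusted p = 2.60e-08).

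Of 22 tested genes of TNF and NF-kB signalling 15 rose and none fell (edgeR, none also with DESeq2 and none at an unadjusted p below 0.05; 1 fell without villin-PPARD replicate 3), and of 18 of the interleukin-1 family 11 rose and 1 fell (7 and 2 in the 8 libraries alone). Il33 (chr19:29925114-29960718), an alarmin stored in epithelial nuclei, was at 78.1, 206, 97.4 and 89.05 CPM in wild type and 742, 549.7, 544 and 588 CPM in villin-PPARD. Wild-type replicate 2 stood above the rest of its group, and the groups did not overlap (2.37 ± 0.27, edgeR adjusted p = 2.28e-07). Il1rn, the receptor antagonist, was at 0.979, 1.25, 2.16 and 1.51 CPM in wild type and 7.12, 4.85, 3.73 and 20.4 CPM in villin-PPARD, with replicate 4 far above the others (2.53 ± 0.38, edgeR adjusted p = 1.47e-05; 1.76 without it). Il1b was at 0.245, 0.729, 0.491 and 0.2695 CPM in wild type and 0.287, 1.14, 0.584 and 1.12 CPM in villin-PPARD. Il1b levels overlapped between the genotypes (0.87 ± 0.57, edgeR adjusted p = 0.227). Birc3, an inhibitor of apoptosis, was at 7.83, 11.4, 9.23 and 7.22 CPM in wild type and 24.99, 22.3, 16.6 and 26.1 CPM in villin-PPARD (1.35 ± 0.15, edgeR adjusted p = 4.95e-08), and Tnfaip3, the feedback inhibitor A20, spanned 12.1 to 13.2 CPM in wild type and 19.2 to 28 CPM in villin-PPARD (1.0084 ± 0.15, edgeR adjusted p = 4.80e-06); both were apart in the 2 groups. Of 20 chemokine genes 7 rose and 2 fell, but leaving out wild-type replicate 1 or 2 or villin-PPARD replicate 1 left 4 that rose, leaving out villin-PPARD replicate 4 left 3, and the 8 libraries alone left 2; the falls went to 0 without wild-type replicate 3 and to 1 without wild-type replicate 4 or villin-PPARD replicate 1 or 4. Ccl20, which attracts CCR6-bearing cells, was at 4.16, 4.896, 3.93 and 3.99 CPM in wild type and 41.9, 25.1, 13.96 and 52.9 CPM in villin-PPARD (2.99 ± 0.31, edgeR adjusted p = 3.68e-08). Cxcl16 was at 41.6, 42.6, 39.1 and 41.1 CPM in wild type and 136, 116, 73.1 and 146 CPM in villin-PPARD, with wild-type libraries close together and all villin-PPARD libraries above them (1.52 ± 0.17, edgeR adjusted p = 5.58e-08).

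Of 13 tested genes of NADPH oxidases, which produce oxidants, 5 rose (3 in the 8 libraries alone) and 8 were not called, against 21% of all genes higher. Duox2 (chr2:122279247-122298449), the dual oxidase that releases hydrogen peroxide at the mucosal surface, was at 139, 116, 109.5 and 102 CPM in wild type and 821, 619, 277 and 778 CPM in villin-PPARD. Its maturation factor Duoxa2, encoded next to it, was at 55.04, 36.9, 36.4 and 41.99 CPM in wild type and 326, 215, 134 and 295 CPM in villin-PPARD. For both genes replicate 3 was the lowest villin-PPARD library and lay above wild type (Duox2: 2.42 ± 0.36, edgeR adjusted p = 1.43e-05; Duoxa2: 2.51 ± 0.35, edgeR adjusted p = 5.60e-06). Of 20 gasdermin and cell death genes 12 rose and 3 fell. Mlkl, the effector of necroptosis, was at 14.1, 17.7, 14.2 and 9.27 CPM in wild type and 79.7, 62.7, 39.5 and 55.5 CPM in villin-PPARD (2.12 ± 0.20, edgeR adjusted p = 3.74e-09), and the kinase upstream of it, Ripk3, was at 21.4, 19.8, 14.5 and 18.8 CPM in wild type and 55.8, 55.1, 34.6 and 66.3 CPM in villin-PPARD (1.51 ± 0.19, edgeR adjusted p = 4.73e-07). Neither overlapped between the groups. Gsdmc4, a gasdermin, was at 58.6, 63.3, 60.1 and 57.8 CPM in wild type and 114, 90.6, 110 and 63.1 CPM in villin-PPARD, with replicate 4 just inside wild type (0.66 ± 0.14, edgeR adjusted p = 6.47e-04).

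Of 34 tested targets of PPAR receptors 7 rose and 11 fell, with a median of -0.14. Over all genes tested 21% were higher, close to the share of these targets, and 18.6% lower; the rise count was 2 without wild-type replicate 3, 3 without wild-type replicate 4 or villin-PPARD replicate 1, 2 without villin-PPARD replicate 4 and 12 with scaling by total count alone. Vnn1 (chr10:23894688-23905343), a pantetheinase and a known PPAR target, was at 5.69, 3.33, 4.57 and 4.26 CPM in wild type and 120.1, 98.1, 40.6 and 185 CPM in villin-PPARD. All villin-PPARD libraries were far above wild type, with replicate 4 highest and replicate 3 lowest (4.61 ± 0.35, edgeR adjusted p = 1.26e-10). Plin2, a lipid droplet coat protein, was at 8.38, 4.79, 7.12 and 8.89 CPM in wild type and 18.97, 16.4, 13.3 and 40.3 CPM in villin-PPARD (1.57 ± 0.25, edgeR adjusted p = 2.54e-05). Angptl4, an inhibitor of lipoprotein lipase, was at 6.67, 3.33, 2.504 and 4.15 CPM in wild type and 7.07, 7.36, 5.83 and 11.7 CPM in villin-PPARD, with wild-type replicate 1 inside the villin-PPARD range (0.92 ± 0.29, edgeR adjusted p = 0.0117; adjusted p = 0.0565 without wild-type replicate 3 and 0.0733 without villin-PPARD replicate 4). Pdk4, which shuts glucose out of mitochondria, was at 17.7, 19.8, 12.7 and 11.3 CPM in wild type and 21.8, 17.7, 7.99 and 10.1 CPM in villin-PPARD. Pdk4 levels overlapped fully between the genotypes (-0.07 ± 0.30, edgeR adjusted p = 0.868). Cpt1a, the gate of fatty acid oxidation, was not called (0.25 ± 0.13, edgeR adjusted p = 0.135). It was called with scaling by total count alone (0.402, adjusted p = 0.00937), with limma-voom (0.385, 0.00883) and without villin-PPARD replicate 3 (0.326, 0.0439).

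The genes Fabp3, Cd36 and Lpl of fatty acid uptake fell. Fabp3, a fatty acid-binding protein of oxidative cells, was at 66.8, 50.1, 40.5 and 45.2 CPM in wild type and 14.2, 13.6, 29.1 and 10.7 CPM in villin-PPARD. Fabp3 levels did not overlap between the genotypes (-1.57 ± 0.23, edgeR adjusted p = 1.05e-05). Cd36, the fatty acid translocase, was at 55.5, 61.98, 64.2 and 76.7 CPM in wild type and 30.8, 34.8, 46.99 and 18.6 CPM in villin-PPARD, and Lpl, lipoprotein lipase, at 232, 315, 247 and 276 CPM in wild type and 83.6, 104, 150 and 64.9 CPM in villin-PPARD. Both were lower in every villin-PPARD library, replicate 3 being the nearest to wild type (Cd36: -0.97 ± 0.20, edgeR adjusted p = 5.39e-04; Lpl: -1.41 ± 0.19, edgeR adjusted p = 1.55e-06). Among the receptors themselves Pparg was at 58.7, 78.1, 64.5 and 54.8 CPM in wild type and 151, 115.4, 103.4 and 125 CPM in villin-PPARD. Pparg levels did not overlap between the genotypes (0.95 ± 0.22, edgeR adjusted p = 0.00124). Ppara was at 4.098, 2.5, 3.04 and 3.88 CPM in wild type and 1.34, 2.17, 2.38 and 1.71 CPM in villin-PPARD, lower throughout (-0.84 ± 0.22, edgeR adjusted p = 0.0032). The PPAR element searched, on both strands, was 2 copies of AGGTCA in direct repeat with 1 base between them. It was in 0.0396% of all promoter windows and in 0 of 27 PPAR target genes with a window. So rare an exact match cannot tell 27 genes from all windows, and no conclusion is drawn from it. A single AGGTCA was in 16.3% of all windows and in 8 of those 27.

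Respiratory chain genes were lower on both genomes. Of 40 nuclear-encoded subunits 34 fell and none rose (edgeR, none also with DESeq2 and limma-voom), with a median of -0.50; scaling by total count alone left 22. Cox4i1, a subunit of cytochrome oxidase, was at 546, 342, 376 and 448 CPM in wild type and 192, 183, 237 and 165 CPM in villin-PPARD. Cox4i1 levels did not overlap between the genotypes (-1.14 ± 0.13, edgeR adjusted p = 9.86e-08). Of 14 mitochondrially encoded genes 9 fell (median -1.39). The mitochondrial gene mt-Nd4, a subunit of complex I, was at 5282, 11480, 8721 and 9756 CPM in wild type and 2892, 2845, 4312 and 2272 CPM in villin-PPARD. Wild-type replicate 1 was much lower than the other 3 wild-type libraries, as in the mitochondrial share of counts, and still above villin-PPARD (-1.52 ± 0.32, edgeR adjusted p = 6.09e-04). For mt-Co1, a subunit of cytochrome oxidase, the levels were 22590, 55890, 38900 and 45310 CPM in wild type and 18710, 18880, 22590 and 15540 CPM in villin-PPARD, wild-type replicate 1 and villin-PPARD replicate 3 being equal at this rounding (-1.1032 ± 0.34, edgeR adjusted p = 0.0109). Parietal cells are known to be rich in mitochondria, and the summed level of their genes was lower in the same libraries, as given above; its part in the respiratory chain result was not tested. Of 24 genes of glycolysis 4 rose and 6 fell, near the 21% and 18.6% of all genes. Leaving out single libraries gave 4 to 10 falls, the 10 being without villin-PPARD replicate 3. Hk2, a hexokinase, was at 10.5, 12.1, 10.4 and 10.9 CPM in wild type and 44.5, 34.9, 25.04 and 58.1 CPM in villin-PPARD (1.89 ± 0.20, edgeR adjusted p = 4.53e-08), and Slc7a11, the cystine importer of glutathione synthesis, spanned 13.5 to 20.3 CPM in wild type and 39.9 to 48.9 CPM in villin-PPARD (1.33 ± 0.21, edgeR adjusted p = 1.65e-05).

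Mitosis genes rose without exception among the 34 tested, 32 of them with no overlap between the groups (median 1.05); leaving out replicate 3 of either genotype left 32 called. Mki67 (chr7:135689784-135716361), the proliferation antigen, was at 109, 110.1, 65.98 and 62.4 CPM in wild type and 176, 164, 136 and 153 CPM in villin-PPARD. Wild-type replicates 1 and 2 were higher than 3 and 4, and all villin-PPARD libraries were higher still (0.85 ± 0.17, edgeR adjusted p = 2.13e-04). Ect2, which places the cleavage furrow, was at 5.81, 7.71, 6.28 and 5.28 CPM in wild type and 16.3, 15.5, 19.6 and 16.2 CPM in villin-PPARD, with replicate 3 the highest (1.45 ± 0.18, edgeR adjusted p = 2.85e-07). Stil, a centriole duplication factor, was at 1.96, 1.15, 0.884 and 1.13 CPM in wild type and 3.35, 3.14, 4.94 and 3.72 CPM in villin-PPARD, again highest in replicate 3 (1.57 ± 0.23, edgeR adjusted p = 6.14e-06). Of 38 DNA replication genes 24 rose (15 in the 8 libraries alone) and none fell (edgeR, none also with DESeq2). Mcm6, a helicase subunit, was at 22.1, 15, 13.6 and 21.02 CPM in wild type and 41.4, 40.8, 37.9 and 39.3 CPM in villin-PPARD (1.15 ± 0.12, edgeR adjusted p = 2.24e-08). Of 19 homologous recombination genes 11 rose (7 in the 8 libraries alone), with Brca1 at 6.85, 6.15, 5.35 and 6.58 CPM in wild type and 8.84, 7.93, 9.83 and 12.4 CPM in villin-PPARD (0.64 ± 0.13, edgeR adjusted p = 3.88e-04). Of 32 stem cell and Wnt genes 8 rose (5 without villin-PPARD replicate 4), near the 21% of all genes, and 2 fell (1 without wild-type replicate 1 or villin-PPARD replicate 4). Lgr5, the Wnt target and stem cell marker, was at 3.42, 3.54, 7.66 and 7.06 CPM in wild type and 3.25, 5.82, 4.44 and 2.68 CPM in villin-PPARD. Lgr5 levels overlapped between the genotypes (-0.44 ± 0.31, edgeR adjusted p = 0.272). Aldh1a3, an enzyme of retinoic acid synthesis, was at 2.69, 3.75, 3.09 and 3.88 CPM in wild type and 9.46, 10.2, 5.57 and 30.7 CPM in villin-PPARD; replicate 4 was highest, and without it the difference was 1.31, against 2.03 ± 0.38, edgeR adjusted p = 1.89e-04 with all libraries. The Wnt receptor gene Fzd10 was lower at 2.75, 2.604, 5.15 and 2.37 CPM in wild type and 0.4301, 0.5704, 0.943 and 0.521 CPM in villin-PPARD (-2.37 ± 0.32, edgeR adjusted p = 1.29e-06), as was Fzd1 at 8.93, 7.29, 7.56 and 8.46 CPM in wild type and 5.26, 5.82, 5.07 and 6.33 CPM in villin-PPARD (-0.53 ± 0.13, edgeR adjusted p = 0.00146).

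Of 25 tested laminin, integrin and invasion genes 20 rose and 1 fell (median 1.19), the fall being lost without replicate 3 of either genotype, wild-type replicate 4 or villin-PPARD replicate 1 or 2. Itga2 (chr13:114833081-114932100), the collagen-binding integrin subunit, was at 0.489, 0.729, 0.982 and 0.755 CPM in wild type and 12.5, 12.6, 2.02 and 32.1 CPM in villin-PPARD. Replicate 4 was highest and replicate 3 lay nearer to wild type than to the other villin-PPARD libraries (4.26 ± 0.62, edgeR adjusted p = 1.22e-05; 3.55 without replicate 4). Plaur, the urokinase receptor, was at 36.5, 33.96, 23.6 and 27.8 CPM in wild type and 166, 124, 69.1 and 176 CPM in villin-PPARD (2.14 ± 0.24, edgeR adjusted p = 1.21e-07). Of 22 collagens 3 were higher and 6 lower (median 0.085), against 21% and 18.6% of all genes. Without villin-PPARD replicate 3 these counts were 7 and 5, and in group 1 alone 0 and 5. Of 21 matrix metalloproteinases and inhibitors 9 rose and 2 fell, both falls being lost without wild-type replicate 3 or 4 or villin-PPARD replicate 1 or 2, and 1 of them without any other library but wild-type replicate 2. Mmp10, stromelysin 2, was at 0.245, 0.208, 0.196 and 0.647 CPM in wild type and 13, 8.44, 1.62 and 20.4 CPM in villin-PPARD, with replicate 3 the lowest of its group (4.95 ± 0.68, edgeR adjusted p = 5.32e-06; 5.59 without wild-type replicate 4). Of 19 junction genes 13 rose and 1 fell (8 and 1 in the 8 libraries alone). Cldn4, a claudin of tight junctions, was at 1.34, 1.25, 0.982 and 2.86 CPM in wild type and 19.2, 18.1, 6.78 and 42.6 CPM in villin-PPARD (3.7006 ± 0.48, edgeR adjusted p = 2.43e-06), and Cdh1, E-cadherin, at 1576, 1652, 1589 and 1476 CPM in wild type and 3136, 2872, 1705 and 2709 CPM in villin-PPARD (0.73 ± 0.16, edgeR adjusted p = 8.23e-04). For both genes the groups were apart. Ivl, involucrin of squamous epithelium, was the sole squamous gene called of 12 tested, at 0.673, 1.67, 0.393 and 0.755 CPM in wild type and 2.06, 1.25, 0.853 and 20.2 CPM in villin-PPARD. Its level rested on replicate 4 (2.86 ± 0.78, edgeR adjusted p = 0.00534); without that library the difference was 0.81 (adjusted p = 0.163), and it was not called in the 8 libraries alone (adjusted p = 0.101) or in group 1 alone (adjusted p = 0.0985).

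Markers of cells other than epithelium were examined in the same way. Counts here, and those of fibroblast, endothelial and erythroid genes below, stand against 21% higher and 18.6% lower over all genes tested. No gene of 12 tested for T and NK cells was called (edgeR, 0 also with DESeq2 and limma-voom and 0 at an unadjusted p below 0.05), with a summed level of 2.39 to 4.42 CPM in wild type and 3.28 to 4.62 CPM in villin-PPARD. A further 10 members did not pass the filter. None of 6 tested granulocyte genes was called by any of those tools, and 9 did not pass the filter. Of these, Elane, Ly6g, Ngp, Camp and Epx had 0 counts in all 8 libraries. At levels this low a change may go uncalled. Of 23 myeloid genes 3 rose and 1 fell, with sums of 66.9 to 179 and 106 to 192 CPM; 1 rose without villin-PPARD replicate 4 and 5 without replicate 3, and 2 fell without wild-type replicate 1. Mpeg1, the pore-forming perforin-2 of macrophages, was at 7.95, 10.5, 16.7 and 19.1 CPM in wild type and 82.2, 57.6, 34.5 and 53.02 CPM in villin-PPARD. Mpeg1 levels did not overlap between the genotypes (2.05 ± 0.26, edgeR adjusted p = 1.00e-06). Ptprc was at 1.96, 1.88, 4.12 and 5.17 CPM in wild type and 5.07, 5.76, 1.84 and 6.48 CPM in villin-PPARD. Ptprc levels overlapped between the genotypes (0.48 ± 0.32, edgeR adjusted p = 0.247; 0.732, adjusted p = 0.0454 without villin-PPARD replicate 3). For B and plasma cells 1 of 10 fell (sums of 33.7 to 85.7 and 30.7 to 108 CPM), for smooth muscle 2 of 12 fell (47.3 to 126 and 52.7 to 90.2 CPM, 1 without wild-type replicate 2, 3 or 4 or villin-PPARD replicate 1 or 4), and for mast cells 4 of 10 fell (91.3 to 117 and 60.6 to 72.4 CPM; 1 without wild-type replicate 4 and 2 without villin-PPARD replicate 3 or 4). Kit, a receptor of mast and pacemaker cells that is counted there, was at 48.8, 33.9, 35.7 and 41.3 CPM in wild type and 16.4, 19.1, 28.7 and 14.5 CPM in villin-PPARD (-1.02 ± 0.21, edgeR adjusted p = 3.45e-04). The mast cell list also holds Hdc, which is in the endocrine list as well, so the mast cell sum is not of mast cells alone.

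Fibroblast genes summed to 264 to 689 CPM in wild type and 270 to 643 CPM in villin-PPARD, with 2 of 15 higher (1 without wild-type replicate 1 or villin-PPARD replicate 1, 2 or 4, and 4 without wild-type replicate 4 or villin-PPARD replicate 3) and 1 lower (0 to 3 when single libraries were left out). Fap, fibroblast activation protein, was at 0.0612, 0, 0.245 and 0.2695 CPM in wild type and 1.58, 1.37, 1.17 and 1.34 CPM in villin-PPARD, close to 0 in wild type (2.9966 ± 0.43, edgeR adjusted p = 4.42e-06). Postn, the matrix protein periostin, was at 6.12, 17.6, 17.7 and 26.7 CPM in wild type and 45.1, 52.5, 11.98 and 52.8 CPM in villin-PPARD, and replicate 3 lay within wild type (1.24 ± 0.42, edgeR adjusted p = 0.0209). Postn was not called without wild-type replicate 1 (adjusted p = 0.0767), without villin-PPARD replicate 1, 2 or 4 (0.0521, 0.0606 and 0.071), in the 8 libraries alone (0.137) or in group 1 alone (0.141). Of 16 endothelial genes 1 rose and 6 fell (3 without wild-type replicate 4). The riser was Tek (chr4:94739289-94874976), the angiopoietin receptor, at 1.65, 2.396, 3.48 and 4.69 CPM in wild type and 84.8, 69.1, 31.6 and 73.8 CPM in villin-PPARD. All villin-PPARD libraries were far above wild type, with replicate 1 highest and replicate 3 lowest (4.36 ± 0.47, edgeR adjusted p = 1.11e-07). Tie1, its endothelial partner, was lower at 2.94, 1.67, 3.83 and 5.61 CPM in wild type and 1.53, 1.37, 1.39 and 1.64 CPM in villin-PPARD (-1.28 ± 0.31, edgeR adjusted p = 0.00151). Vwf, von Willebrand factor, was at 0.489, 0.833, 2.55 and 2.43 CPM in wild type and 0.335, 0.799, 0.584 and 0.894 CPM in villin-PPARD. Vwf levels overlapped between the genotypes (-1.37 ± 0.46, edgeR adjusted p = 0.0191). Vwf was not called without wild-type replicate 3 or 4 (adjusted p = 0.104 and 0.0896), without villin-PPARD replicate 1 (0.0795), in the 8 libraries alone (0.0521) or in group 1 alone (0.118). All 4 tested erythroid genes fell, among them Hba-a1 at 18.9, 13.4, 55.4 and 38.9 CPM in wild type and 7.36, 6.103, 15.7 and 3.95 CPM in villin-PPARD, with replicate 3 overlapping (-1.92 ± 0.44, edgeR adjusted p = 0.00139). Their sum was 35.2 to 105 CPM in wild type and 10.9 to 29.1 CPM in villin-PPARD.

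Several of the 20 largest falls lay outside these lists. Spink4 (chr4:40920052-40931395), which encodes a secreted protease inhibitor of mucous cells, was at 37.8, 26.6, 31.7 and 29.9 CPM in wild type and 4.68, 6.27, 8.21 and 5.14 CPM in villin-PPARD. The 2 groups were far apart, and the villin-PPARD libraries lay close together (-2.37 ± 0.21, edgeR adjusted p = 5.80e-10). Meg3 (chr12:109541001-109571726) and Mirg (chr12:109729764-109749460), long noncoding RNAs of the imprinted Dlk1-Dio3 cluster, were lower together. Meg3 was at 72.2, 63.96, 63.7 and 69.2 CPM in wild type and 8.98, 15.9, 17.4 and 8.41 CPM in villin-PPARD (-2.3994 ± 0.30, edgeR adjusted p = 1.36e-06), and Mirg at 1.41, 1.46, 1.67 and 1.83 CPM in wild type and 0.191, 0.627, 0.179 and 0.298 CPM in villin-PPARD (-2.32 ± 0.43, edgeR adjusted p = 1.30e-04). Tnxb, the matrix protein tenascin-X, was at 2.75, 5.11, 6.77 and 7.22 CPM in wild type and 1.15, 0.9697, 1.08 and 1.12 CPM in villin-PPARD. Villin-PPARD libraries were nearly equal (-2.34 ± 0.38, edgeR adjusted p = 2.33e-05). Among the largest rises Klra4, an NK cell receptor gene, had 0 counts in wild type and 77 over the villin-PPARD libraries, at 0.812, 0.627, 0.449 and 2.904 CPM there, a level at least 22.5-fold higher when set against 3 counts over the group. Its level was carried most by replicate 4.

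The genotype difference was compared with that at the other ages, where each age has its own wild-type libraries. The change from 10 to 25 weeks was called for 1 gene (0.00632% of those tested), 0 upward (0%) and 1 downward (0.00632%), with 1810 genes at an unadjusted p below 0.05; DESeq2 called 45 genes and limma-voom 76. The gene was Setd4 (chr16:93583457-93604063), a lysine methyltransferase. It was at 27.9, 23.6, 27 and 23.99 CPM in wild type and 11.9, 14.3, 12.9 and 14.5 CPM in villin-PPARD, lower throughout (-0.94 ± 0.12, edgeR adjusted p = 6.49e-07), against a difference of 0.06 at 10 weeks (change -0.998, edgeR adjusted p = 0.0109); the call was lost without villin-PPARD replicate 1 of 25 weeks, without which 0 genes were called, and without replicate 3 of that group 32 genes were called. Of the genes called at 25 weeks 3706 were also called at 10 weeks in the same direction and 4 in the opposite direction.

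From 25 to 55 weeks the difference changed for 4570 genes (28.9%), 2255 upward (14.3%) and 2315 downward (14.6%). The 55-week libraries carry a group 2 tag and the tagged 25-week libraries group 1, each with both genotypes, while the 10-week libraries hold both genotypes in both groups. A fit with library group and its interaction with genotype as terms, added after the data were seen and without the untagged wild-type replicate 3, called 1293 genes for the change, 559 upward and 734 downward, 1198 of them among the 4570. The interaction itself was called for 0 of 16087 genes (edgeR, 942 at an unadjusted p below 0.05). Of genes called at 25 weeks 4118 were called at 55 weeks in the same direction and 325 in the opposite direction. From 25 to 55 weeks the difference of 16 of 21 parietal genes changed downward (median -0.88 at 25 and -3.36 at 55 weeks), as did that of 10 of 13 chief genes (-1.02 and -4.29), 15 of 22 endocrine genes (-0.93 and -3.43) and 12 of 17 pit genes (-0.11 and -0.98). Atp4a changed by -3.68 (edgeR adjusted p = 1.66e-08) and Pgc by -4.66 (adjusted p = 2.68e-07). Upward went 8 of 10 MHC class II genes (-0.25 and 2.45), 12 of 20 of the neck and SPEM list (0.78 and 1.89), 29 of 38 DNA replication genes (0.53 and 1.39) and 13 of 34 mitosis genes (1.05 and 1.62). With the library group terms 11 parietal, 6 chief, 10 endocrine and 8 pit genes were called downward, and 1 MHC class II, 7 neck and SPEM, 13 DNA replication and 0 mitosis genes upward. Interferon-stimulated lists differed. Downward went 11 of 18 of the ISG15 and PARP list (3.23 and 2.36) and 7 of 15 OAS and IFIT genes (4.71 and 3.16), none of either going upward. In the GBP, IRG and MX list 5 of 20 went upward and 2 downward (3.67 and 4.13; 0 and 3 with the group terms), and in the IFI and IFITM list 4 of 12 went upward and 7 downward (1.88 and 1.92; 1 and 3 with the group terms). Slfn4 changed by -3.51 (adjusted p = 5.02e-07). MHC class I stayed near its value, with 4 of 21 up and 1 down (1.999 and 2.13). Il33 changed by -2.61 (adjusted p = 3.17e-06), to -0.23 at 55 weeks. Gsdmc4 and Fzd1 turned around, Gsdmc4 from 0.66 to -1.94 and Fzd1 from -0.53 to 2.04 (adjusted p of the change 1.29e-10 and 8.42e-12).

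**Figure D5:**
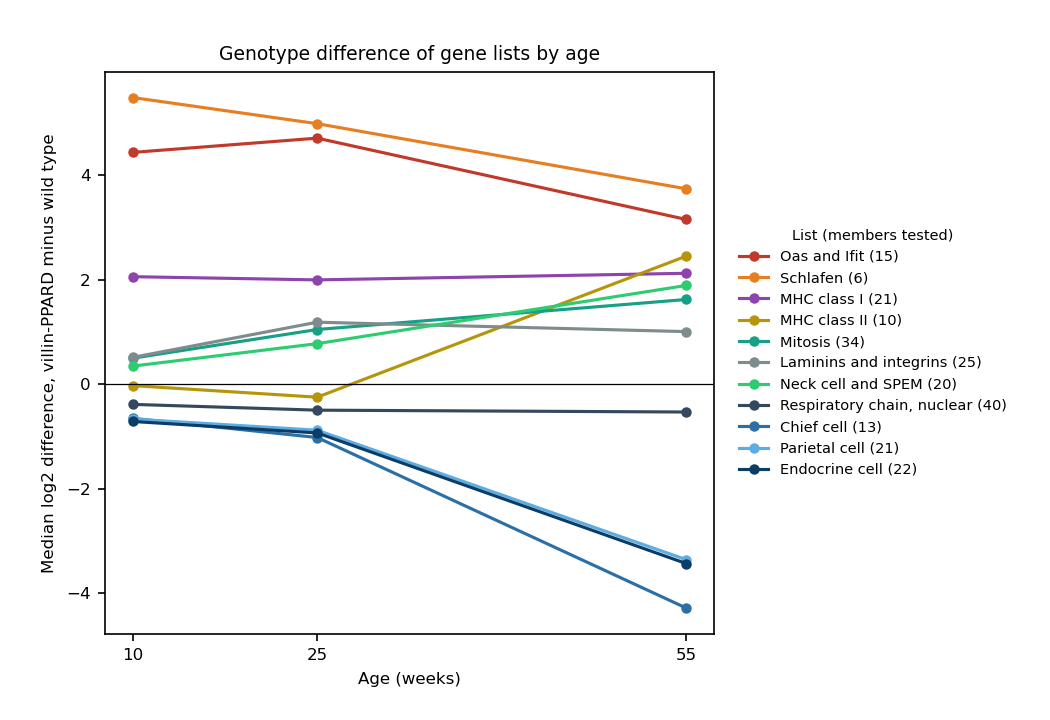
Median log2 difference, villin-PPARD minus wild type, of the tested members of 11 gene lists at 10, 25 and 55 weeks (x axis, age; members tested in brackets). The parietal, chief and endocrine lists lie between -1.02 and -0.65 at 10 and 25 weeks and between -4.29 and -3.36 at 55 weeks, and MHC class II lies at -0.03 and -0.25 at the earlier ages and at 2.45 at 55 weeks; the 55-week libraries carry another group tag.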

How the data were processed

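The authors deposited 1 table of read counts per gene for 28 libraries. Per the submitters' processing notes TopHat2 2.0.14, HTSeq 0.6.1, DESeq2 and the mm10 build were used; which annotation was counted, and with which strand option, is not given in the sources used here. The counts were analysed in R 4.3.3 with edgeR 4.0.16: genes were kept by filterByExpr (15812 of 49492), scaled by trimmed mean of M values, and fitted by the quasi-likelihood model with 1 mean for each of 6 groups, sharing the spread over all 28 libraries. The genotype difference at 25 weeks and its changes from 10 and to 55 weeks were tested, with Benjamini-Hochberg adjustment and a threshold of 0.05. SE is the size of the log2 difference over the root of its F statistic. Library shares were compared by exact permutation tests.

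Members and gene lists (68) were chosen with earlier results of these data known. Named genes came from a fixed panel, the 20 largest separated changes in each direction with at least 1 CPM in the higher group, the 6 lowest adjusted p per list and the 8 lowest per direction of each change between ages; those printed are a choice from these 477, and a few genes counted in the lists are not reported by name here. Alternatives used limma 3.58.1 (voom), DESeq2 1.42.0, other scalings and filters, a replicate block and left-out libraries; the fits of group 1 libraries alone and with library group terms were added after the data were seen. Depth ran from 10982888 to 22298409 counts in the 8 libraries. Counts have no molecular identifiers, so floors of 3 counts cover counting error only. Promoter sequences are from RefSeq on GRCm38.p6, with windows for 10997 of the genes tested.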

Additional observations from a re-analysis of the deposited data

Results flagged for a closer look

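In groups of 4 libraries, 11 of the 254 sets of values examined had a library far from the other 3, judged by its gap over the whole range; chance gives about 1 in 20. Among villin-PPARD libraries these were Socs1 in replicate 1 (3.54 CPM), H2-Ab1 and Areg in replicate 3 (19.3 and 84.3 CPM), and Kcnj16, Ivl and Klra4 in replicate 4 (83.0, 20.25 and 2.90 CPM). Among wild-type libraries they were Fosl1 and Il33 in replicate 2 (3.65 and 205.5 CPM), Fzd10 in replicate 3 (5.15 CPM), and Cdx2 and Mmp10 in replicate 4 (0.0539 and 0.647 CPM).

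The difference between genotypes changed with age for 69 of the gene results, 25 upward and 44 downward, tested as an interaction in edgeR. These come from 2 changes for each of 124 genes. Over all genes tested 0.00632% were called from 10 to 25 weeks and 28.9% from 25 to 55 weeks. Some of the 124 were named for a low adjusted p of such a change, so the count is no result about them. With library group terms Atp4a, Pgc, Slfn4, Il33, Gsdmc4 and Fzd1 stayed called from 25 to 55 weeks. The others are not given with those terms here. From 10 to 25 weeks the gene called was Setd4, by -1.0 on the log2 scale. All further changes were from 25 to 55 weeks, a step that also changes the library group, and are given as log2 changes of the difference. Among interferon response and its neighbours, upward changes were Slfn9 by 0.87 and Ifne by 1.17. Among interferon response and its neighbours, downward changes were Irf7 by -1.06, Stat2 by -1.03, Irf9 by -0.8, Usp18 by -1.47, Slfn4 by -3.51, Isg15 by -1.56, Bst2 by -0.89, Oas2 by -1.92, Sp100 by -1.15, Ddx58 by -1.5, Eif2ak2 by -1.41 and Nptx2 by -3.75. Among antigen presentation and T cells, upward changes were Psmb8 by 1.03, Ciita by 3.68, H2-Ab1 by 1.58 and Cd3e by 1.67. Among antigen presentation and T cells, downward changes were Lgals9 by -0.8. Among parietal, chief, pit, neck and endocrine cells, upward changes were Muc13 by 4.57. Among parietal, chief, pit, neck and endocrine cells, downward changes were Atp4a by -3.68, Kcnj16 by -3.41, Hrh2 by -3.48, Car2 by -0.62, Ckb by -2.04, Pgc by -4.66, Clps by -5.69, Cym by -2.09, Gkn1 by -1.5, Muc5ac by -2.29, Muc6 by -1.7, Sst by -4.25, Ghrl by -2.5 and Isl1 by -2.34. Among metaplasia and intestinal identity, upward changes were Vil1 by 1.21, Cd44 by 2.9, Clu by 1.19, Wfdc2 by 1.05, Gpa33 by 1.72 and Pdx1 by 1.44. Among cytokines, growth factors and cell death, upward changes were Myc by 1.3, Il1rn by 1.43, Il1b by 2.76 and Tnfaip3 by 1.28. Among cytokines, growth factors and cell death, downward changes were Fosl1 by -1.27, Lif by -1.42, Il33 by -2.61, Ripk3 by -0.78 and Gsdmc4 by -2.59. Among lipid and glucose use, upward changes were Vnn1 by 1.16 and Hk2 by 1.8. Among lipid and glucose use, downward changes were Fabp3 by -3.88, Cd36 by -3.29, Lpl by -2.72 and Ppara by -2.07. Among the remaining genes, upward changes were Mcm6 by 0.64, Brca1 by 2.12, Aldh1a3 by 1.66, Vwf by 2.53, Spink4 by 2.23 and Fzd1 by 2.57. Among the remaining genes, downward changes were Lgr5 by -3.41, Tek by -2.57, Fap by -1.89, Kit by -1.44, Meg3 by -3.48, Mirg by -2.39 and Setd4 by -0.75.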

How the results depend on the processing

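The total count of genes called for genotype at 25 weeks stayed within 1.5 times of 6262 in every alternative but the 2-fold test. That test against a 2-fold change called 386 (318 higher and 68 lower). Leaving out single libraries gave 4862 to 6807. Counts by direction moved further. The 8 libraries alone called 4540 genes, 2057 higher and 2483 lower, against 3318 higher and 2944 lower in the main fit. The change from 25 to 55 weeks stayed within 1.5 times of 4570 except with library group terms, which called 1293 (3944 to 5148 without single libraries), although scaling by total count alone moved its upward share from 49.3% to 73.3% and the median change of all genes to 0.24. The change from 10 to 25 weeks, with 1 call, had 0 with that scaling, with the replicate block and in group 1 alone, 6 with library group terms, 45 with DESeq2, 76 with limma-voom and 0 to 32 without single libraries: 11 without wild-type replicate 5 of 10 weeks, 3 without villin-PPARD replicate 3 of 10 weeks, and 2 without wild-type replicate 4 of 10 weeks or wild-type replicate 1 or 2 of 25 weeks. The cause of these moves was not tested. Replicate numbers did not pair the samples (correlations of same-numbered deviations -0.147, 0.016, -0.135 and -0.099), and with the replicate block 5335 genes were called at 25 weeks and 3735 for the change to 55 weeks. Of 111 named genes called, 56 kept the call under every alternative that tested them, of 17 (15 for Amy2b and 16 for Klra4); the other 55 lost it in the 2-fold test. Cpt1a and Ptprc gained a call as given beside them.

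The 4 genes that changed sign were not called in any direction. Ifne was at 0.151 with scaling by total count, 0.0137 with no filter, 0.0478 with limma-voom, 0.0848 in group 1 alone and, where it turned without single libraries, at 0.0329, 0.0371, 0.0695, 0.122 and 0.218; without single libraries it ranged from -0.265 to 0.218. Ciita was at 0.0533 without wild-type replicate 4 and ranged from -0.932 to that value. Muc6 was at -0.0051 with the replicate block, -0.0047 in the 8 libraries alone, -0.119 in group 1 alone, and -0.134 and -0.255 without replicate 3 of wild type and of villin-PPARD (range without single libraries -0.255 to 0.211). Pdk4 was at 0.0649 with scaling by total count, 0.254 with limma-voom and 0.0123, 0.0632, 0.117 and 0.0393 without wild-type replicates 1 and 2 and villin-PPARD replicates 3 and 4 (range -0.35 to 0.117). Gast, Angptl4, Ivl, Vwf, Postn and Ppard lost their calls as given beside them. Depth limits genes with few counts, such as Klra4, Amy2b, Fap and Ifne.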
